A study of Sus scrofa with 50 samples.

Results

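The nuclear-encoded subunits of the mitochondrial respiratory chain and of the ATP synthase were described across 5 organs of the Korean minipig, a small breed of Sus scrofa. The subunits were chosen by name, as 55 Swiss-Prot entries of complexes I to V. Transcripts of a de novo assembly were assigned to a subunit by the entry of their best protein match, and their TPM (transcripts per 1000000 transcripts) were summed. Of the 55 entries, 52 had at least 1 transcript, out of 35133 genes formed in the same way. NDUA1, NDUA3 and QCR8 had none and have no value here. The 52 comprised 31 entries of complex I, 4 of complex II, 6 of complex III, 6 of complex IV and 5 of complex V.

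Poly(A) RNA sequencing with strand-specific libraries was done on TRIzol-extracted RNA of spleen, lung, liver, kidney and heart. Each organ was taken from 5 ET-type and 5 L-type minipigs, and the same animal number recurs in each organ, giving 50 libraries in all. ET-type and L-type are the names of the 2 minipig types in the labels, and no treatment, genotype, age or sex is given for either in the sources used here. The comparisons were heart against each other organ, the other organs among themselves, and ET-type against L-type within an organ.

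The respiratory chain passes electrons from NADH (through complex I) and from succinate (through complex II, which is also an enzyme of the citric acid cycle) to coenzyme Q. Complex III then hands them to cytochrome c and complex IV to oxygen, and the proton gradient so built drives ATP synthesis in complex V. Most subunits are encoded in the nucleus and imported, while a small set of core subunits of complexes I, III, IV and V is encoded in the mitochondrial genome. Cardiac muscle is rich in mitochondria and depends on this pathway for contraction, and the kidney tubule depends on it for ion transport.

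The organ labels were checked against marker genes, and not every marker set separated its organ from the others. Cardiomyocyte markers summed to 23778 to 86387 TPM in the hearts and to at most 275.6 TPM in any other library, hepatocyte markers to at least 73732 TPM in the livers, and lung epithelial markers to at least 20092 TPM in the lungs. The kidney library of ET-type S0235 stood apart: its lymphocyte markers summed to 1798.5 TPM, against 14.6 to 51.1 TPM in the other 9 kidneys, and UROM, a protein of the thick ascending limb, was at 0.179 TPM, against at least 229.6 TPM. That library was left out of the comparisons and is given separately. Kidney tubule markers did not separate the organs: they summed to 1184 to 8157 TPM in the other 9 kidneys, but to 1750 TPM in the liver of S0276. Lymphocyte markers overlapped too, at 124.4 to 709.5 TPM in spleen and 96.9 to 251.7 TPM in lung. TPM sum to 1000000 in every library, so depth is unknown, and a few very abundant transcripts lower all other values of a library. All organs are mixtures of cells, so fewer cells of a type and less RNA per cell cannot be told apart.

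Together the 52 subunits took up 4.005% ± 1.08 of all TPM in heart (SD, n = 10), 1.43% ± 0.435 in kidney (n = 9), and 0.803% ± 0.0771 in spleen, 0.870% ± 0.0902 in lung and 0.908% ± 0.0881 in liver (n = 10 each). The hearts ranged from 2.15% to 5.19%, and the kidney library left out held 1.01%. The 2 lowest hearts lay below the kidney of ET-type S0242, which had 2.24%, and every heart lay above all other libraries of the other organs. Within the 52, complex I accounted for 48.9% ± 3.55 of subunit TPM in heart and 44.1% ± 3.90 in liver. Complex II held the smallest share in heart, 3.54% ± 0.743, and a larger one in liver, 10.5% ± 2.36. These shares depend on how many entries of each complex were listed, and NDUA4 is counted under complex I by its name.

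**Figure D1:**
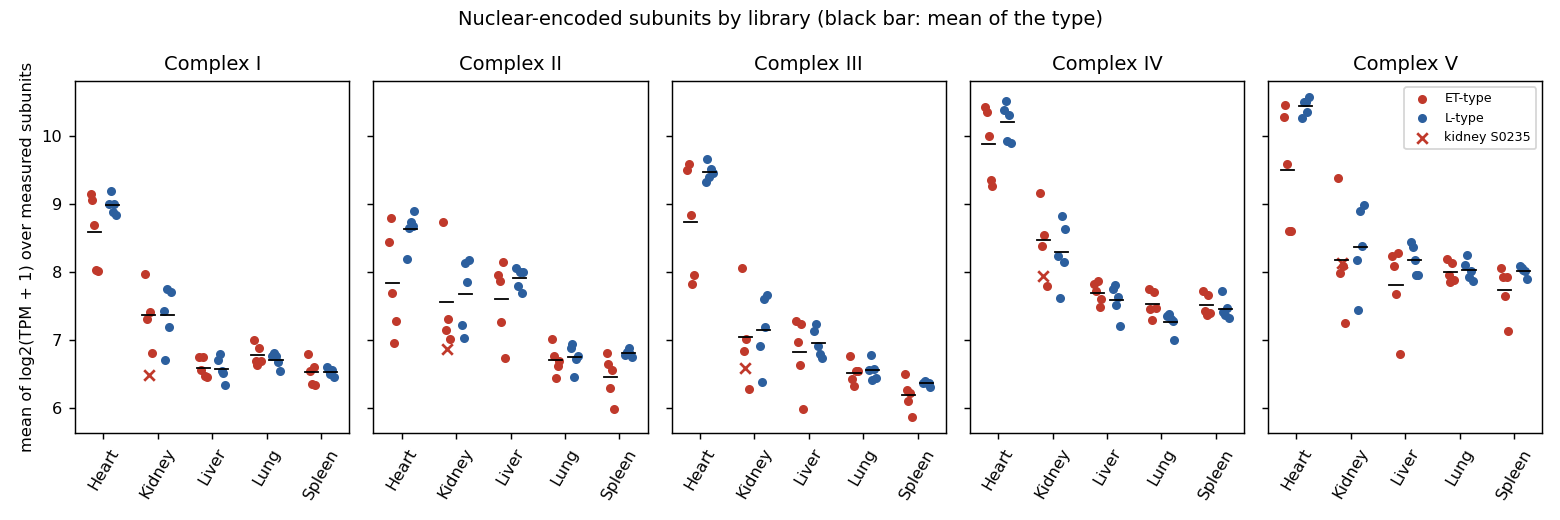
Mean of log2(TPM + 1) over the measured subunits of each complex (y axis) in each library, by organ (x axis) and type (red ET-type, blue L-type, bar the mean of the type, cross the kidney library of S0235 left out of the means). Heart is highest in complexes I, III, IV and V, with 2 or 3 ET-type hearts well below the others, while complex II differs less between heart, kidney and liver.

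TPM are scaled by the length of the assembled transcript, so levels are compared between subunits per length, as far as these lengths are right. In 2 of the 46 subunits with a locus, the most abundant transcript was longer than the whole RefSeq locus (COX7C, 5869 against 2274 bases, and COX5B, 2423 against 1811 bases), and a length that is too long lowers TPM. In complex I, whose accessory subunits surround a catalytic core, the highest mean in heart was that of NDUA4 (gene NDUFA4, Sscrofa11.1 chr9:80637005-80644067) at 2254 ± 802 TPM (SD, n = 10). NDUA4 is grouped with complex I by its name, but the protein is now known to reside in complex IV. The lowest was NDUA5 (NDUFA5), an accessory subunit of the matrix arm, at 55.8 ± 12.3 TPM. Its most abundant transcript was 5647 bases long, so this low place depends on that length. In complex II the iron-sulphur subunit SDHB was highest in heart (619 ± 202 TPM) and the membrane anchor C560 (SDHC) lowest (206 ± 116 TPM). In complex III the small subunit QCR9 (UQCR10) reached 1055 ± 393 TPM and the core protein QCR2 (UQCRC2) 258.9 ± 116 TPM. In complex IV the range ran from COX7C, at 365.9 ± 87.9 TPM, to COX7B, at 3178 ± 817 TPM, the highest heart level of all 52. The low place of COX7C depends on its transcript length. In complex V the catalytic beta subunit ATPB (ATP5F1B) was highest at 1886 ± 816 TPM and ATPD, the delta subunit of the central stalk, lowest at 373 ± 145 TPM. Transcript levels within a complex thus differed several-fold between subunits in the same organ.

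Heart stood above the other organs in nearly every subunit. By mean TPM, 50 of the 52 were highest in heart, NDUA7 was highest in kidney and C560 in liver. The lowest organ was spleen for 27 subunits, liver for 16 and lung for 9. In the limma fit of all genes on log2(TPM + 1), a subunit was called when its adjusted p was below 0.05 and its log2 difference at least 1. Against kidney, 40 of 52 subunits were called higher in heart and 0 lower, where 6.67% of 29725 genes were called higher and 33.7% lower. Against liver, 45 were called higher (14% of genes), against lung 45 (5.3%) and against spleen 47 (7.83%). None was called lower, where 15.9%, 49.3% and 22.3% of genes were. In 38 of 52 the heart was called higher than all 4 other organs, which held for 3.14% of genes. The median log2 difference of heart from the mean of the other organs was 2.10 over the 52, against -0.65 over all genes tested. In 17 of 52 every heart library exceeded all 40 libraries of the other organs, which held for 1.72% of genes. These 17 were 13 subunits of complex I, COX5B and COX7C of complex IV, and QCR7 and QCR9 of complex III.

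**Figure D2:**
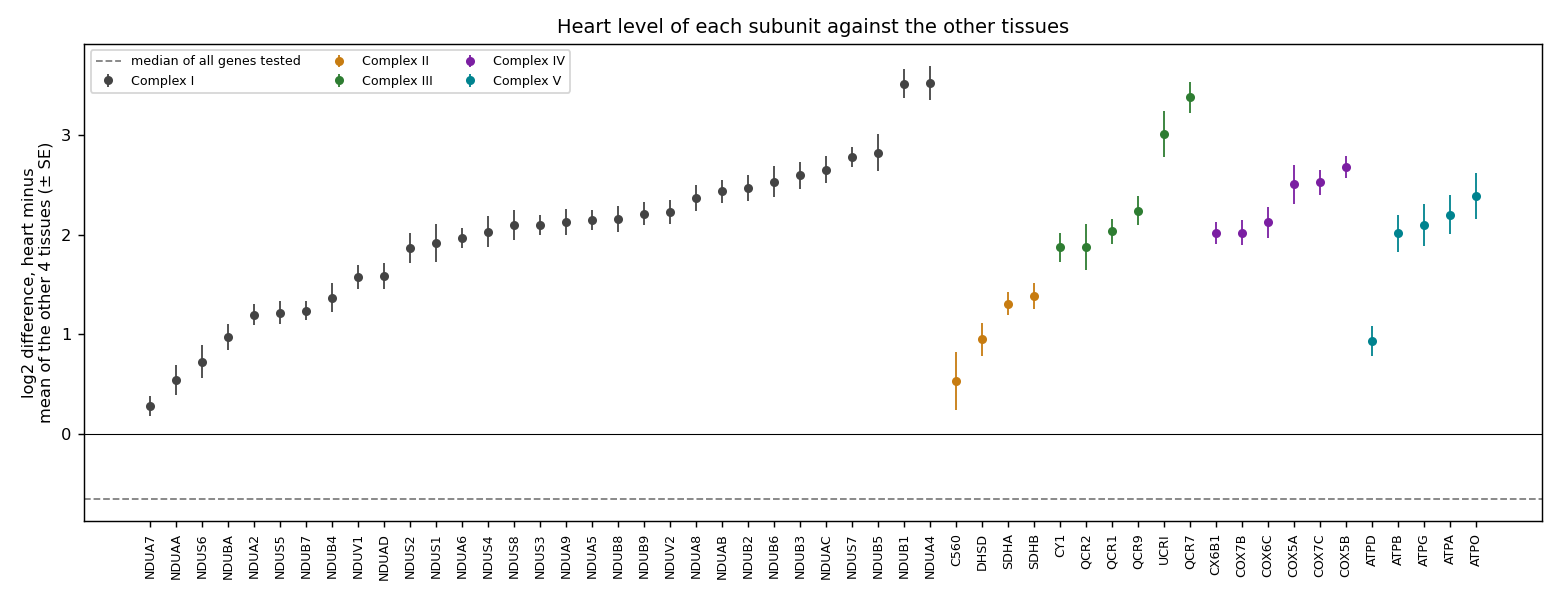
Log2 difference of heart from the mean of the other 4 organs for each of the 52 subunits (points, ± SE from the limma fit), ordered within complexes I to V and coloured by complex. All 52 points lie above 0 and above the dashed median of all genes at -0.65, from NDUA7 at 0.28 to NDUA4 at 3.53.

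In complex I, 27 of 31 subunits were called higher in heart than the mean of the other organs, a contrast in which 6.35% of genes were called higher. NDUA4 had the largest difference. Its 10 hearts spanned 941 to 3359 TPM, while its means were 308 ± 171 TPM in kidney (n = 9), 222 ± 44.2 in liver, 124 ± 21.3 in lung and 149 ± 27.8 in spleen. The lowest heart was above the highest of all other libraries, a kidney at 580.2 TPM. The log2 difference from the mean of the other organs was 3.53 ± 0.17 (SE, limma adjusted p = 7.68e-24). NDUB1 (NDUFB1), an accessory subunit of the membrane arm, followed with a mean of 2008 ± 655 TPM in heart and 136 to 321.2 TPM in the others, a log2 difference of 3.52 ± 0.15. The NDUFA4 locus has a copy on chromosome 13 that RefSeq lists as a pseudogene, and whether reads are shared between them was not tested.

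NDUA7 (NDUFA7), an accessory subunit of the matrix arm, had the smallest heart difference of complex I, in which NDUAA, NDUS6 and NDUBA were not called against the mean of the others either. It was at 988 ± 184 TPM in heart, 1109 ± 267 in kidney, 967 ± 162 in lung, 773 ± 92.4 in spleen and 530.2 ± 117 in liver. Heart, kidney and lung overlapped, and the lymphoid kidney library of S0235 held 1642 TPM, above every other library. The heart difference from the mean of the others was 0.28 ± 0.10 (limma adjusted p = 0.0118), under the size asked for a call. NDUFA7 lies at chr2:70954844-70961717 and overlaps the ribosomal protein gene RPS28 (chr2:70953706-70954862) by 19 bases. The entry of RPS28 held only 9.35 to 23.8 TPM on average in each organ, and whether reads of RPS28 are counted in NDUA7 was not tested.

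Complex II had the smallest median difference of heart from the mean of the other organs, 1.13, where the other complexes had 2.10 to 2.32, and these medians were not tested against each other. SDHA and SDHB, which form the catalytic part with the flavin and the iron-sulphur clusters, were called higher in heart than the mean of the other organs, and the 2 anchors C560 and DHSD (SDHD) were not. None of the 4 was called between heart and kidney or between heart and liver. SDHB was at 619 ± 202 TPM in heart, 347.3 ± 123 in kidney and 367 ± 41.1 in liver, but at 145.2 ± 21.0 in lung and 139.6 ± 22.6 in spleen. Its log2 difference was 2.003 ± 0.17 from lung and 0.67 ± 0.17 from liver. C560 had the widest spread of the 4: 43.6 to 348.2 TPM in heart, 65.9 to 576.2 in kidney and 34.9 to 382.2 in liver. Its heart difference from the mean of the others, 0.53 ± 0.29, did not pass (limma adjusted p = 0.0903). Without the ET-type hearts of S0309 and S0326, left out after their low values were seen, it was 0.94 ± 0.29 (adjusted p = 0.00352). That is still under the size asked for a call. The difference was called with median-ratio scaling (1.19, adjusted p = 0.000509) and without transcripts of the mitochondrial genome (1.01, adjusted p = 0.000740).

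All 6 measured subunits of complex III were called higher in heart than in each other organ. QCR7 (UQCRB, chr4:40403272-40409080), a small subunit near the quinone site, had the largest difference, 3.38 ± 0.16, and CY1 (CYC1), the cytochrome c1 that passes electrons on to cytochrome c, the smallest, 1.87 ± 0.15. QCR7 ran from 295.8 to 1132 TPM in heart and from 40.8 to 177.7 TPM in all other libraries, without overlap. All 6 subunits of complex IV were likewise called in heart against each other organ, from CX6B1 (COX6B1), on the intermembrane space side, at 2.02 ± 0.11, to COX5B, a zinc-binding subunit, at 2.68 ± 0.11. COX5B had 485 to 1018 TPM in heart and at most 304 TPM elsewhere. In complex V the 2 large subunits of the catalytic head, ATPA and ATPB, the gamma subunit ATPG and ATPO (ATP5PO, the peripheral stalk protein OSCP) were called in heart against each other organ. ATPO had the largest difference, 2.39 ± 0.23. ATPD was called only against liver, with differences of 0.68 ± 0.20 from kidney and 1.39 ± 0.19 from liver.

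Other respiratory chain genes were read from lists beside the 52. Over all genes, 6.35% were called higher in heart than the mean of the other organs and 29.4% lower. Of 27 further nuclear subunits, 24 were called higher and 1 lower. The striated-muscle isoform of subunit VIa, CX6A2, was higher by 5.80 ± 0.16 and its widespread counterpart CX6A1 lower, at -1.82 ± 0.11. All 9 measured genes of the mitochondrial genome were called higher than the mean of the other organs, with a median of 2.22. Against kidney alone, 3 of the 9 were called higher and 0 lower, where 6.67% and 33.7% of genes were. There 8 lay above 0 and 1 below, with a median of 0.54. Of 14 citric acid cycle genes 8 were called higher than the mean of the other organs and 0 lower. Of 42 assembly factors, which build the complexes but are not part of them, 6 were called higher and 2 lower, with a median of 0.41. Against kidney alone 7 assembly factors were called higher and 6 lower, with a median of 0.20.

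Among the other organs, kidney was called higher than liver in 11 subunits, where 30.8% of genes were called higher, than lung in 11 (9.63%) and than spleen in 18 (20.7%). It was called lower in none, where 8.17%, 22.9% and 10.8% of genes were. Against liver the share of subunits called was below that of all genes, and the median difference from liver was 0.59 over the 52 and 0.53 over all genes. All 11 above liver belonged to complex I. NDUS7 (NDUFS7), a core subunit next to the quinone site, had 94.4 to 176.3 TPM in the 9 kidneys and 23.5 to 41.7 TPM in the 10 livers, a log2 difference of 1.97 ± 0.13 without overlap. Liver exceeded lung in 3 subunits (7.9% of genes), SDHA, SDHB and C560, all of complex II, and spleen in these and in NDUA9 and QCR2 (11.8%). SDHA was at 172 ± 35.5 TPM in liver and 70.2 ± 10.1 in lung, a log2 difference of 1.27 ± 0.15. Lung exceeded spleen in NDUB4 (NDUFB4) alone (28.7% of genes), at 1.23 ± 0.18. No subunit was lower in liver than in lung or spleen, or in lung than in spleen, where 47.4%, 23.6% and 7.03% of genes were. These counts moved with the scaling: with median-ratio factors kidney exceeded lung in 33 subunits (14.1% of genes), liver exceeded lung in 31 (15.7%), kidney exceeded liver in 2 (20.4%) and fell below it in 1 (13.9%), and lung fell below spleen in 3 (11.6%) and exceeded it in 0 (15.1%). The same scaling moved the median difference of all genes between liver and lung from -0.94 to -0.10.

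Between the types, no subunit was called in heart, although most stood lower in ET-type. In the heart fit 0 of 52 passed an adjusted p of 0.05, where 0.0238% of 21014 genes did (0.0143% higher and 0.00952% lower in ET-type). Of the 52, 46 had a difference below 0, as had 41.9% of genes, and the median was -0.53, against 0.09 over all genes. At an unadjusted p below 0.05, 18 subunits were lower (8.28% of genes) and 0 higher (13.9%). By complex, the median difference was -0.47 in complex I, -0.66 in II, -0.71 in III, -0.16 in IV and -0.97 in V. The 7 core subunits of complex I, which form its catalytic part, had a median of -0.67 and all lay below 0. Its 24 accessory subunits had a median of -0.46, with 19 below 0.

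**Figure D3:**
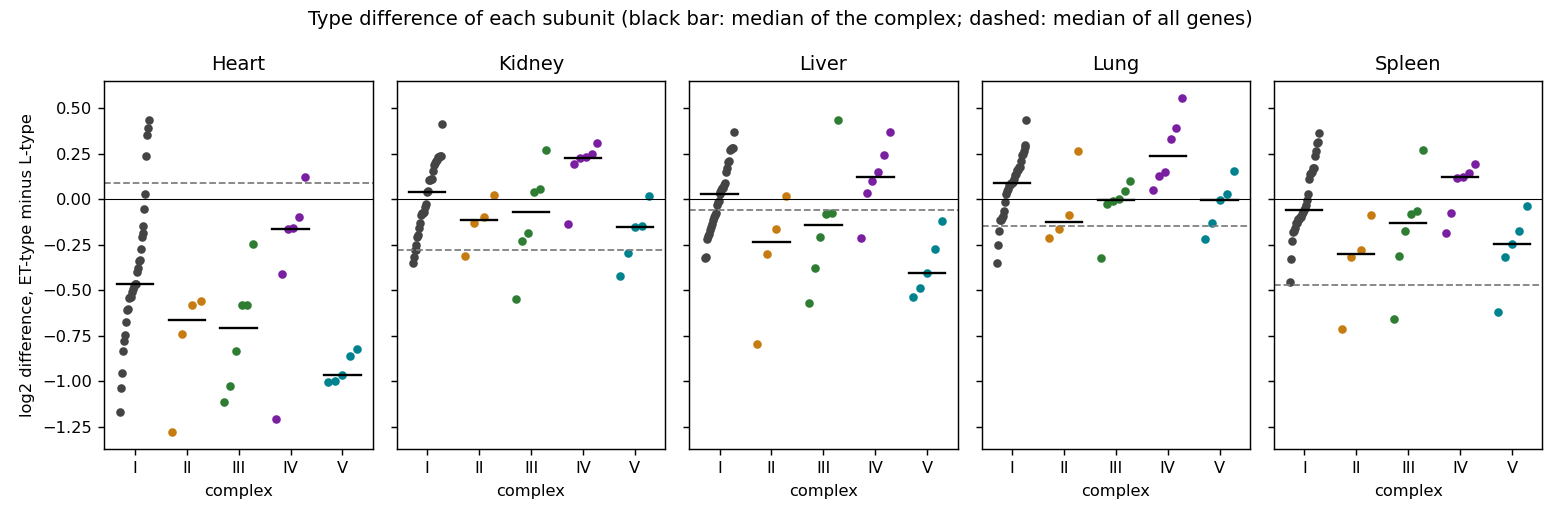
Log2 difference ET-type minus L-type of each of the 52 subunits (points) in each organ, by complex (x axis), with the median of the complex (bar) and of all genes tested (dashed). In heart 46 of 52 points lie below 0, and complex V has the lowest median at -0.97, while the medians of the other 4 organs by complex stay between -0.40 and 0.24.

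The subunit with the smallest p in heart was NDUS6 (NDUFS6, chr16:78993909-79000001), a zinc-binding accessory subunit added late in the assembly of complex I. It was at 91.2, 103.9, 57.3, 33.6 and 43.4 TPM in the ET-type hearts of S0235, S0242, S0276, S0309 and S0326. In the L-type hearts of S0349, S0355, S0377, S0384 and S0385 it was at 120.0, 126.9, 126.4, 169.2 and 146.2 TPM. The 2 groups did not overlap. Only 2 subunits did not overlap in this direction, NDUS6 and COX5A, as did 1.57% of genes, and 0 in the other (3.11%). The log2 difference was -1.17 ± 0.29 (limma adjusted p = 0.0890).

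NDUAA (NDUFA10, chr15:138999174-139031892), a membrane-arm subunit with a kinase-like fold, was at 156.0, 176.5, 97.8, 65.0 and 65.7 TPM in the ET-type hearts and at 171.7, 203.4, 234.1, 238.7 and 220.3 TPM in the L-type hearts. Only ET-type S0242 reached into the L-type range, and the difference was -1.04 ± 0.28 (adjusted p = 0.0953). COX5A, a matrix-facing subunit of cytochrome c oxidase, was at 604.0, 626.1, 347.4, 188.2 and 160.4 TPM in ET-type. In L-type it was at 663.5, 851.8, 740.0, 816.2 and 772.3 TPM, a difference of -1.21 ± 0.37 (adjusted p = 0.110). For all 3 the ET-type hearts of S0235 and S0242 were closest to the L-type hearts and those of S0309 and S0326 farthest from them. Complex V showed the same order: ATPB was at 1977, 2652, 1066, 598 and 731.4 TPM in ET-type and at 1795 to 2866 TPM in L-type.

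The other 6 subunits did not lie below 0 in heart, and the 3 with the smallest p were NDUA7 at 0.35 ± 0.17 (adjusted p = 0.254), NDUB2 at 0.39 ± 0.21 (adjusted p = 0.286) and NDUB1 at 0.43 ± 0.28 (adjusted p = 0.383). NDUB1 was at 2866, 1842, 3061, 1840 and 1815 TPM in ET-type hearts and at 2358, 2410, 1244, 1559 and 1086 TPM in L-type hearts, so the groups overlapped. None of the 3 passed the test.

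With all organs in 1 fit and the animal as a replicate block, 6 subunits were called lower in ET-type hearts (1.38% of genes), among them NDUS6 (limma adjusted p = 0.00328), NDUAA (0.00623) and COX5A (0.0213). That fit assumes 1 spread for all organs, but the median residual SD of the subunits was 0.49 in heart against 0.22 in lung and 0.23 in spleen. The SE of NDUS6 was 0.24 there and 0.29 in the heart fit, and the 6 calls carry that limit. In the heart fit without ET-type S0242, 9 subunits were called lower, where 3.67% of genes were called lower and 6.56% higher. With each animal left out in turn, the limma adjusted p of NDUS6, NDUAA and COX5A rose to at most 0.203, 0.216 and 0.240.

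The ET-type hearts were uneven in these subunits, and the counts moved when animals of either type were left out. The 18 subunits at an unadjusted p below 0.05 became 7 without ET-type S0326 and 8 without ET-type S0309. They became 11 without L-type S0384 or S0385 and 12 without L-type S0355. They became 28 without S0242 and 30 without S0235, where 10.6% and 8.61% of genes were lower at that p. For the other animals left out, the share of all genes is not given, so those counts show only how the 18 moved. S0309 had the lowest heart level of all 10 in 24 subunits and S0326 in 23, and in 34 of 52 the 3 lowest hearts were those of ET-type S0276, S0309 and S0326. The 52 subunits made up 4.95% and 4.86% of TPM in the ET-type hearts of S0235 and S0242, 3.61% in S0276, and 2.16% and 2.15% in S0309 and S0326, against 4.05% to 5.19% in L-type. Without the hearts of S0309 and S0326, 31 of 52 subunits lay below 0, with a median of -0.07 against -0.01 over all genes. These 2 hearts were left out after they were seen to be lowest, so a smaller difference was built in and tests nothing. In that fit 3 were lower and 1 higher at an unadjusted p below 0.05. The share of all genes at that p is not given for it, so these counts are not read as a result about the subunits.

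**Figure D4:**
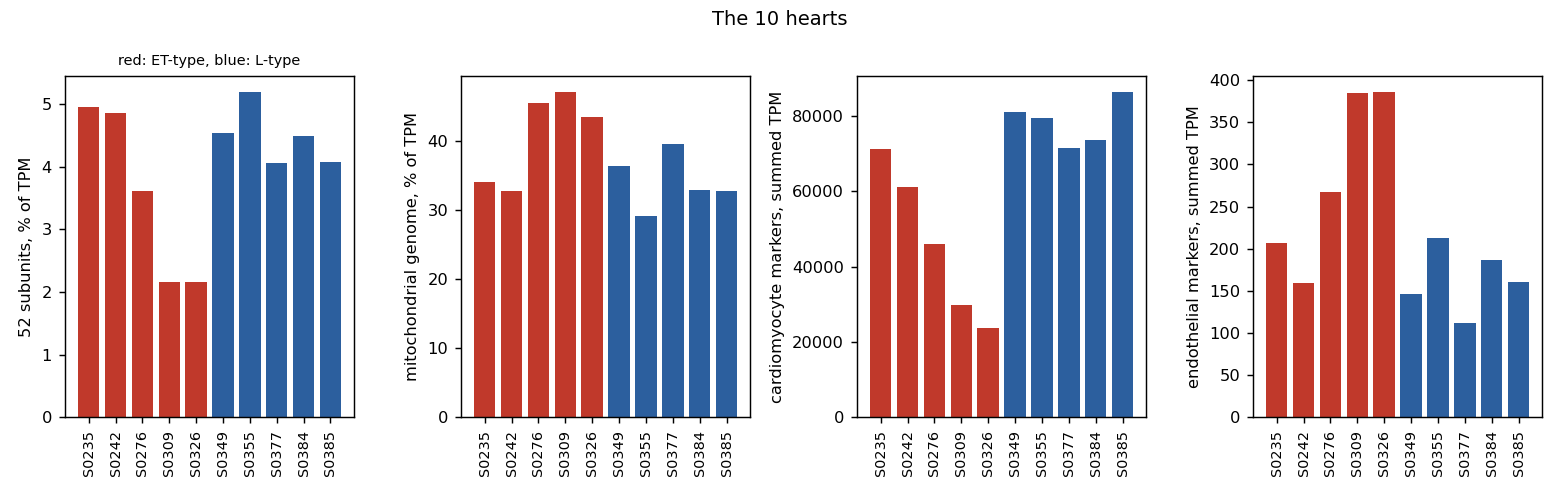
The 10 hearts by animal (x axis, red ET-type, blue L-type), with 4 measures as bars: the share of TPM in the 52 subunits, the share in transcripts of the mitochondrial genome, and the summed TPM of the cardiomyocyte and of the endothelial markers. The subunits and the cardiomyocyte markers are lowest in S0309 and S0326, at 2.16% and 2.15% and at 29946 and 23778 TPM, while the endothelial markers are highest there.

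Other measures differed between the types in the same hearts, and not all of them followed the order of the subunits. The cardiomyocyte markers summed to 71389, 61231, 46052, 29946 and 23778 TPM in the ET-type hearts, in the order above, and to 71482 to 86387 TPM in L-type. Of their 7 tested genes 6 lay below 0 and 4 had an unadjusted p below 0.05. The 5 endothelial markers all lay above 0 in ET-type, summing to 159.3 to 385.6 TPM against 111.9 to 212.2 TPM. The 6 fibroblast and matrix markers all lay above 0 too, with a median difference of 1.60. They summed to 2122, 1169, 1082, 1246 and 2888 TPM in ET-type, against 292.1 to 880.4 TPM. Haemoglobin summed to 327.6, 127.6, 1150, 336.5 and 734.3 TPM in ET-type, against 13.2 to 133.5 TPM. The fibroblast and haemoglobin sums did not follow the order of the subunits. No marker of these lists was called in heart. The part of cell composition in the subunit differences was not tested.

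Lists of other mitochondrial genes were read in the same heart fit, in which no gene of them was called. All 14 citric acid cycle genes lay below 0 in ET-type, with a median of -0.86 and 13 at an unadjusted p below 0.05. The mitochondrial malate dehydrogenase MDHM was at -1.85 ± 0.47 (adjusted p = 0.0892) and the isocitrate dehydrogenase IDHP at -1.18 ± 0.30 (adjusted p = 0.0905). Of 42 assembly factors 36 lay below 0 (median -0.39), led by ATPF2 at -0.98 ± 0.23 and SDHF1 at -0.71 ± 0.20. All 11 genes of coenzyme Q synthesis and electron transfer did so as well (median -0.50), led by COQ9 at -1.58 ± 0.43 and COQ4 at -0.59 ± 0.18. Among 11 outer membrane, import and chaperone genes 10 lay below 0 (median -0.68), with the import pore TOM40 at -0.73 ± 0.24 and the prohibitin PHB2 at -0.83 ± 0.29. Of 12 regulators of mitochondrial biogenesis 9 did (median -0.26), 1 of them at an unadjusted p below 0.05, a share like that of all genes. The smallest p were those of the nuclear receptor ERR1, at -0.74 ± 0.24, and the methyltransferase TFB1M at -0.29 ± 0.15. Of 27 further nuclear subunits 19 lay below 0, but the 2 with the smallest p lay above: COX42, the alternative isoform of subunit IV, at 1.12 ± 0.25 and CX6A1 at 0.70 ± 0.18.

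The 9 genes of the mitochondrial genome all lay above 0 in ET-type hearts, with a median of 0.44. NU3M was at 1.02 ± 0.24 (adjusted p = 0.0863) and ATP6 at 1.70 ± 0.49 (adjusted p = 0.102). Their share of TPM was 34.1%, 32.8%, 45.5%, 47.1% and 43.5% in the ET-type hearts and 29.1% to 39.6% in L-type, so the hearts low in nuclear-encoded subunits were high in mitochondrial transcripts. That share alone lowers all other TPM of a library. With these transcripts left out and the rest rescaled, 43 of 52 subunits lay below 0 with a median of -0.38, against 0.23 over all genes, and the subunits made up 4.08% and 3.81% of the remaining TPM in S0309 and S0326, against 6.05% to 7.51% in the other 8 hearts.

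In kidney, liver and lung no subunit was called between the types. In kidney 0 of 52 passed (0.00376% of genes), 26 lay below 0 (79.7% of genes) and 0 had an unadjusted p below 0.05, where 0.655% of genes were higher and 8.05% lower. None had groups without overlap (0.151% of genes higher, 2.77% lower). The smallest p of each direction were those of NDUS5 (0.41 ± 0.25), COX7B (0.31 ± 0.28) and NDUB7 (0.23 ± 0.26), and of QCR2 (-0.55 ± 0.47), ATPO (-0.42 ± 0.49) and NDUS1 (-0.32 ± 0.39), all with adjusted p of 0.621 to 0.767. NDUS1 stood at 0.03 with median-ratio scaling, NDUB7 at -0.23 with the kidney of S0235 kept, and ATPO at 0.05 without S0326.

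In liver 0 passed (0.00933% of genes) and 29 lay below 0 (57.4%). At an unadjusted p below 0.05 only ATPD was lower (4.19% of genes) and 0 were higher (2.39%), and no subunit had groups without overlap (0.331% of genes higher, 0.751% lower). ATPD was at -0.49 ± 0.20, NDUA4 at -0.32 ± 0.20 and ATPO at -0.54 ± 0.36, and COX7C at 0.37 ± 0.21, QCR9 at 0.44 ± 0.25 and NDUA2 at 0.28 ± 0.19, with adjusted p of 0.718 to 0.887.

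In lung 0 passed (0.213% of genes, 0.0275% higher and 0.185% lower) and 18 lay below 0 (64.9%), with a median of 0.08 against -0.15 over all genes. At an unadjusted p below 0.05, 2 were higher (2.94% of genes) and 2 lower (13.3%). COX7C, a small subunit of cytochrome c oxidase, had the smallest p. It was at 71.8, 64.2, 54.0, 72.1 and 51.0 TPM in the ET-type lungs and at 47.5, 40.8, 44.5, 43.3 and 34.2 TPM in the L-type lungs. The groups did not overlap, as in 1 of 52 subunits and 0.539% of genes in this direction (0 of 52 and 3.67% in the other), but the difference of 0.56 ± 0.15 did not pass (adjusted p = 0.128). All 6 subunits of complex IV lay above 0, COX6C at 0.39 ± 0.17 and NDUB1 of complex I at 0.44 ± 0.22 being the next by p. On the other side were CY1 (-0.32 ± 0.13), NDUAA (-0.35 ± 0.15) and NDUS8 (-0.25 ± 0.15), with adjusted p of 0.263 to 0.432. Other lists moved between the same lungs, with no gene called: all 9 genes of the mitochondrial genome lay above 0 in ET-type (median 1.101), as did both red cell markers (median 1.98), and all 4 macrophage markers lay below 0 (median -1.22). Their part in the subunit values was not tested.

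In spleen 1 of 52 subunits was called, QCR2, in a fit that called 22.2% of 24007 genes, nearly all lower in ET-type (21.5%, against 0.696% higher). At an unadjusted p below 0.05, 3 subunits were lower (42.4% of genes) and 1 higher (1.8%). QCR2 (UQCRC2) is a core protein of complex III, structurally related to mitochondrial processing peptidases. It was at 35.2, 35.6, 27.6, 32.2 and 20.7 TPM in the ET-type spleens and at 51.9, 45.0, 49.3, 40.8 and 51.5 TPM in the L-type spleens. The ET-type values all lay below the L-type values, as in 3 of 52 subunits and 15.5% of genes (1 subunit, NDUB9, and 0.275% the other way), and the difference was -0.66 ± 0.17 (limma adjusted p = 0.0301). It did not pass with the animal as a replicate block (adjusted p = 0.191), with median-ratio scaling (-0.08, adjusted p = 0.754), with the 10 highest genes left out (adjusted p = 0.0666), or without S0276, S0326, S0377, S0384 or S0385 (adjusted p of 0.0521 to 0.0794).

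The other named subunits in spleen did not pass: C560 at -0.71 ± 0.25 (adjusted p = 0.0541) and NDUS1 at -0.46 ± 0.17 (adjusted p = 0.0626) were lowest by p, and NDUB9 at 0.31 ± 0.13 (adjusted p = 0.0782), QCR9 at 0.27 ± 0.14 and NDUB1 at 0.36 ± 0.19 lay above 0. Below 0 lay 35 of the 52, as did 86.8% of genes, and the median over the 52 was -0.08, against -0.47 over all genes. Haemoglobin moved with the types: HBA and HBB summed to 109210 to 333290 TPM in ET-type spleens and to 5432 to 148160 TPM in L-type. Lymphocyte markers moved the other way, with 124.4 to 268.6 TPM against 246.1 to 709.5 TPM, and the part of either in the subunit values was not tested. With median-ratio scaling, which put the median of all genes at 0.01, 12 subunits were called, all higher in ET-type (2.03% of genes), and NDUS1 stood at 0.11. With the 10 highest genes left out 4 were called, all higher (0.773% of genes). NDUB9 and QCR9 were among those passing in both, at 0.90 (limma adjusted p = 0.0338) and 0.86 (0.0418) with median-ratio scaling and at 0.58 (0.0334) and 0.54 (0.0451) without the 10 highest genes. C560 had an adjusted p of 0.04999 without transcripts of the mitochondrial genome.

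The type difference of a subunit was then compared between organs. By the F test of type by organ, 2 of 52 subunits passed, where 13.1% of 29725 genes did (at an unadjusted p below 0.05, 6 subunits and 32.2% of genes): NDUS6 (adjusted p = 0.0144) and NDUAA (adjusted p = 0.0299). The type difference of NDUS6 was -1.17 in heart, against -0.10 in spleen, -0.11 in lung, 0.15 in liver and 0.20 in kidney. That of NDUAA was -1.04 in heart, against -0.13, -0.35, -0.14 and 0.24 in the same order. The next by p were NDUS8 (adjusted p = 0.0515) and NDUV1 (adjusted p = 0.107), core subunits with iron-sulphur clusters and with the NADH site, and COX5A (adjusted p = 0.110). The test assumes 1 spread for all organs, but the residual SD of the 52 had a median of 0.49 in heart and 0.53 in kidney against 0.22 in lung and 0.23 in spleen. On simulated data with spreads that differed in this way, far more of the calls of this test were false than its threshold allows, and the 2 passes carry that limit. The share of subunits that passed was below that of all genes. With the hearts of S0309 and S0326 left out 0 subunits passed (4.26% of genes), and NDUS6 had an adjusted p of 0.1702. These 2 hearts were left out after their low values were seen, so a smaller difference in heart was built in. With the kidney of S0235 kept 0 passed (5.37% of genes), and with all kidneys left out 4 did (19.3%). With 1 animal left out, 0 passed without S0326 or S0384, 1 without S0276, S0309, S0377 or S0385, 3 without S0235 and 5 without S0242.

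Within the animals, a low heart did not go with low levels elsewhere in every case. Relative to the median library of each organ, the mean log2 level of the 52 in ET-type S0309 was -1.10 in heart, but 0.03 in spleen, 0.16 in lung, -0.00 in liver and 0.03 in kidney. In ET-type S0326 it was -1.07 in heart, -0.33 in spleen, 0.00 in lung, -0.40 in liver and -0.60 in kidney. The kidneys varied widely within both types: S0242 stood at 0.79, S0377 at 0.48 and S0385 at 0.45, and S0355 at -0.64. Transcripts of the mitochondrial genome took 14.02%, 21.0% and 12.3% of TPM in the kidneys of S0242, S0377 and S0385 and 44.2% in that of S0355, and their part in these values was not tested.

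**Figure D5:**
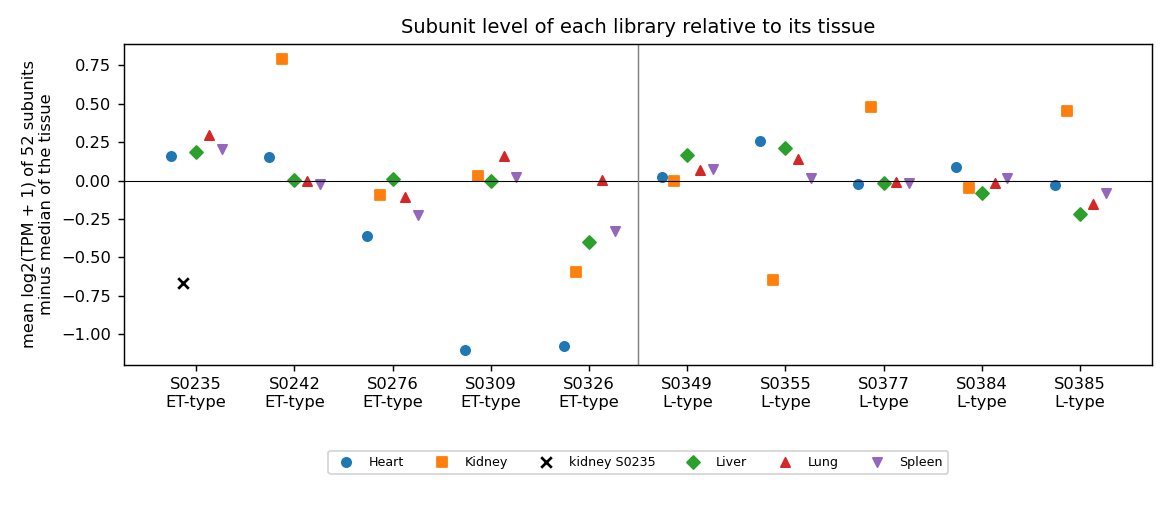
Mean log2(TPM + 1) of the 52 subunits in each library minus the median of its organ (y axis), for each animal (x axis, ET-type left and L-type right of the line), with 1 symbol per organ and a cross for the kidney of S0235. The lowest points are the hearts of S0309 and S0326 at -1.10 and -1.07, and the kidneys spread from -0.64 to 0.79.

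ATPO was lowest in ET-type S0326 in each of the 5 organs. A lowest animal shared by all 5 was found for 1 of 52 subunits and for 0.693% of genes. S0326 was that animal in 47 of these 206 genes, and 1 subunit is not read as a result about the 52. ATPO was at 357.5 TPM in the heart of S0326 against 658.7 to 2177 TPM in the other 9. In the other organs of that animal it was at 78.1 TPM in spleen, 150.3 in lung, 64.4 in liver and 89.9 in kidney, against organ means of 256.6, 283.5, 232 and 322.7 TPM. No subunit was highest in the same animal in all 5 organs (1.26% of genes were).

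Across organs, 8 subunits lay below 0 in ET-type in all 5 (ATPD, ATPG, ATPO, C560, NDUA9, NDUS2, QCR7 and SDHB), as did 16.4% of 16217 genes tested in all, and 5 lay above (COX7C, NDUA2, NDUB1, NDUB2 and NDUS5; 2.31% of genes). The organs come from the same animals, so these are not 5 independent comparisons, and no difference of these 13 subunits was called. Across the 52 subunits, the type difference and the length of the most abundant transcript had a Spearman rho of -0.36 in heart, -0.45 in spleen, -0.36 in lung, -0.33 in liver and -0.31 in kidney. Subunits share libraries and animals, so these values are descriptive.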

How the data were processed

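Per the submitters' processing notes, the tools Trimmomatic 0.36 (a read trimmer) and Salmon 1.10.0 (a transcript quantifier) and the build Sscrofa11.1 were used; how each was used is not given in the sources used here. The authors deposited TPM per assembled transcript, which sum to 1000000 in each of 50 libraries, so read depth and counting error are unknown, and an annotation table of best Swiss-Prot matches (other text columns, as deposited). All 57085 transcripts were summed by Swiss-Prot entry, or kept singly without one, into 35133 genes. The 52 subunits rest on 172 transcripts, all with vertebrate matches, and 99.15% of their TPM had at least 80% identity. Isoforms and near-identical copies cannot be told apart. RefSeq's table for Sscrofa11.1 located 48 of the 55 entries.

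Tests used limma 3.58.1 in R 4.3.3 (trended empirical Bayes) on log2(TPM + 1), where the mean over libraries reached 1 TPM, with Benjamini-Hochberg adjustment over all genes tested. All 52 passed this filter in each fit. A log2 difference on this scale understates changes of low genes. Type differences were fitted per organ, organ differences in 1 fit of 49 libraries, and type by organ with the animal as a replicate block (correlation 0.124). Same-animal libraries of different organs deviated together: mean r 0.257 over 96 pairs, 92 of them above 0.1, against -0.0645 over 384 pairs of different animals. Python 3.11.15, pandas 2.3.3 and matplotlib 3.10.9 made tables and figures. The code was tested on simulated data, where the F test of type by organ, and less so the organ contrasts, made too many false calls when the spread differed between organs.

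The members and lists were chosen with earlier results of these data known. Named were, per type fit, called subunits and the 3 of smallest p in each direction; per complex the highest and lowest in heart and the largest and smallest heart difference; the 5 of smallest p by type and organ; and per accompanying list the 2 of smallest p in heart. NDUB1, NDUS7, ATPB, SDHA and NDUB4, and the examples in the organ lists, were added after their values were seen. Alternatives were another pseudocount (0.1), filter (none, or 5 TPM), scaling, variance model, match identity, libraries and the replicate block. Leaving out the hearts of S0309 and S0326, and weighting libraries by organ, were chosen after seeing the data.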

Additional observations from a re-analysis of the deposited data

Results flagged for a closer look

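In groups of 4 or 5 libraries, 62 sets of values were tested for a library far from the others by Dixon's criterion, which chance meets in about 1 of 20 groups, and 2 were found. In the ET-type kidneys the mean log2(TPM + 1) of complex II was 8.74 in S0242, against 7.01 to 7.31 in the other 3. C560 was at 576.2 TPM in that kidney and at 65.9 to 88.7 TPM in the other 3 ET-type kidneys compared, and SDHB at 551.8 TPM against 239.9 to 306.2 TPM. In the L-type lungs the mean of complex IV was 6.997 in S0385, against 7.28 to 7.38 in the other 4.

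The type difference differed between organs in NDUS6 (F test, adjusted p = 0.0144) and NDUAA (adjusted p = 0.0299), 2 of 52 subunits where 13.1% of genes passed. Both stood lowest in ET-type in heart, and neither passed without the hearts of S0309 and S0326, left out after their low values were seen. On simulated data with spreads that differed between organs, 48.9% of the calls of this test were false. There 100 genes were changed by a log2 of 1 and 100 by 3, among 29725. The false share depends on how many genes change, so 48.9% does not carry over to these data as a number.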

How the results depend on the processing

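Values exist as TPM only, so depth limits no statement in a known way, and 5 animals per type limit the type comparisons. The counts below show how the calls moved with the setting. Where the share of all genes is not given here or above, a count is not read as a result about the subunits. The counts of subunits called higher in heart stayed within 1.5 times under all 11 alternatives run, at 40 to 49 against kidney, 45 to 50 against liver, 45 to 52 against lung and 47 to 51 against spleen. The type counts of kidney, liver and lung stayed at 0.

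Type counts in heart ran from 0 to 9 when 1 animal was left out: 9, all lower, came without ET-type S0242, among them NDUS6 (adjusted p = 0.0250), NDUAA (0.0256) and COX5A (0.0320). A joint fit over organs, with animals as the replicate block and 1 spread assumed for all organs, called 6 lower in heart and 0 in spleen. Spleen, with 1 called, gave 12 (higher) with median-ratio scaling, 2 without transcripts of the mitochondrial genome, 4 (higher) without the 10 highest genes, and 0 to 1 with 1 animal left out. The replicate block changed no count between organs.

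Median-ratio scaling gave 3 called for kidney and liver, 33 for kidney and lung, 11 for kidney and spleen, 31 for liver and lung, 14 for liver and spleen and 3 for lung and spleen. Without mitochondrial transcripts kidney exceeded liver in 24, lung in 26 and spleen in 36, and without the 10 highest genes kidney exceeded lung in 28 and liver exceeded lung in 5. Counts whose share of all genes is not given above show only how the calls moved.

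By type and organ, 2 of 52 passed, where 13.1% of genes did. The count was 19 with median-ratio scaling, 4 without mitochondrial transcripts, 8 without the 10 highest genes, 0 with the kidney of S0235 kept, 4 without kidneys, 0 without the hearts of S0309 and S0326, 1 with no replicate block, 4 with 1 weight per organ, and 0 to 5 with 1 animal left out. Except where the share of all genes is given above, it may have moved too, and these counts show only how the calls moved.

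Turned in sign: NDUS1 with median-ratio scaling (0.028 in kidney, 0.11 in spleen), NDUB7 in kidney with S0235 kept (-0.23) and ATPO in kidney without S0326 (-0.82 to 0.050 over the 9 animals left out in turn). The cause was not tested.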
